A study of Mus musculus with 6 samples.

Results

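The genes described here are 9 transcription factor genes of the AP-1 group (Fos, Fosb, Fosl1, Fosl2, Jun, Junb, Jund, Atf3 and Maff) together with Egr1. They were taken by symbol from the 54453 genes of the deposited tables, all 10 were found, and all 10 were among the 14169 genes that passed the filter on low counts. RNA had been sequenced from organoids of 3 mouse pancreatic tumour lines (T91, T113 and T118), which are epithelial cultures kept in Matrigel. The labels call the tumours KPC, a name used for mouse pancreatic ductal adenocarcinoma (PDAC) models, and give the genotype as KPF/FC, which they do not spell out. Each line carried a short hairpin RNA against Renilla luciferase, a sequence that mouse cells lack, or hairpin number 5523 against Scrib, the gene of a basolateral polarity scaffold. Each line gave 1 library per hairpin, so each hairpin was represented by 3 libraries. The T91 line came from a female and was at passage 10, whereas T118 (passage 11) and T113 (passage 13) came from males. A single Scrib hairpin was used, so that loss of Scrib and other effects of that hairpin cannot be told apart, and line, passage and sex cannot be told apart either.

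AP-1 is a family of dimers of basic leucine zipper (bZIP) proteins that bind DNA, drawn from the Jun, Fos, Atf and Maf families. Egr1 is a zinc finger factor that belongs to the same early response. Most of these genes are immediate early genes, which are switched on from existing proteins when growth factors, ERK or JNK kinases, stress or mere handling reach a cell, and their transcripts are short-lived. ERK signalling is a known source of AP-1 activity in epithelial tumours, and in fly epithelia loss of scrib is known to activate JNK, the kinase named after Jun. The comparison asked how the levels of these genes differed between the Scrib and the Renilla hairpin within each line.

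The libraries held between 24035559 and 36235773 estimated counts, and within each line the library with the Scrib hairpin was the shallower one. Levels are given in CPM, the usual depth-scaled count of RNA-seq, with library sizes scaled by the trimmed mean of M-values (TMM), so that 1 count weighed 0.0269 to 0.0421 CPM. The targeted gene was checked first, and its level relative to the control was 16.8% (T91), 22.3% (T113) and 19.0% (T118). All 7 epithelial markers were present in every library, with a summed level of 6220 to 10100 CPM. The summed levels of the other marker lists were 1.11 to 7.57 CPM for 7 fibroblast genes, 2.12 to 5.64 CPM for 6 immune genes, 0.0325 to 0.421 CPM for 3 endothelial genes and 0.183 to 1.94 CPM for 8 acinar and endocrine genes. Lum, Sox10, Cela2a, Cpb1, Ins1 and Ins2 were at 0 in all 6 libraries, and Mbp alone made up nearly all of the neural and Schwann sum of 72.5 to 104 CPM.

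The members differed widely in abundance. Per kilobase of merged exon length, the control libraries held most Jund transcript, at 217 ± 12.1 CPM per kilobase (SD, n = 3), followed by Junb at 65.2 ± 10.9. Egr1 (30.7 ± 7.15) and Atf3 (24.9 ± 2.40) came next and overlapped between libraries. Fos (13.1 ± 1.36), Maff (12.0 ± 3.60), Jun (11.6 ± 5.92) and Fosl2 (8.05 ± 0.803) followed, and each of these 4 overlapped with its neighbour in the order. Fosl1 stood at 6.60 ± 1.38 and Fosb at 0.401 ± 0.198 CPM per kilobase, which made Fosb 541 times scarcer per length than Jund. Rounded counts of the 10 genes ran from 33 (Fosb) to 13864 (Jund) per library.

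Promoters were looked at for the 4 members on which the results turn, to show which known control letters stand before their start sites. RefSeq windows (GRCm38.p6, 250 bases before to 50 bases after the start of a gene) matched 8 of the 10 members, with 10 windows because Maff has 3. The starts are those of RefSeq: the windows of Atf3, Fosl2 and Jund and those of 2 of the 3 Maff starts do not span the first base of the gene as annotated for the counts, and the Jund window ends before that gene begins. Capitals mark matches on either strand to TGANTCA (the AP-1 site), TGACGTCA (the cyclic AMP response element, CRE), its first letters TGACG (CRE half-site, which overlaps the CRE), TGACATCA (the AP-1-like site known from the Jun promoter), GCGNGGGCG (the EGR site), TATAAA or the CArG box, the binding site of SRF.
Fos, chr12:85473640-85473939, plus strand: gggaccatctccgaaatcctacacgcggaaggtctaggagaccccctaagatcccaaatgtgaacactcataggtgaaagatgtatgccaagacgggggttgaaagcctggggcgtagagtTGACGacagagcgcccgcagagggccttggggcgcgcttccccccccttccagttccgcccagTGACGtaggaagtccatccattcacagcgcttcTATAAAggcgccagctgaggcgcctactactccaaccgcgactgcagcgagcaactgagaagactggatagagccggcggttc
Fosl2, chr5:32136222-32136521, plus strand: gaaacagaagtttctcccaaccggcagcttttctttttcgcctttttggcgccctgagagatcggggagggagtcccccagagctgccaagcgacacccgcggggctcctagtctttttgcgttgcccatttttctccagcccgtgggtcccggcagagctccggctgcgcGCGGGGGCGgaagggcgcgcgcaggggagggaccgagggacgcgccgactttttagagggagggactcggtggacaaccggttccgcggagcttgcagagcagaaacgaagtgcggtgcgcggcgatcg
Jun, chr4:95052173-95052472, minus strand: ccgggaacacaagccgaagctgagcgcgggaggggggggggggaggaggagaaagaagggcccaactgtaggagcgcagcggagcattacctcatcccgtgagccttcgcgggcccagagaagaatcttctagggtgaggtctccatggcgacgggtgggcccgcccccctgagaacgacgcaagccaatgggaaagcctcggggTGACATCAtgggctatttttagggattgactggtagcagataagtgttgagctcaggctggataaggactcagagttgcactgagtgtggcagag
Atf3, chr1:191183284-191183583, minus strand: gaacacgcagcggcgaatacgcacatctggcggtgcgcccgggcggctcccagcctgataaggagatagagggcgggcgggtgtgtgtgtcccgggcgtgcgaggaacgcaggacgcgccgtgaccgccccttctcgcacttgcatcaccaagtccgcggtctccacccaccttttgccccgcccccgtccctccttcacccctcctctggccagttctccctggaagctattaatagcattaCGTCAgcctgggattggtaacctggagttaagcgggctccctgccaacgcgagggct

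The Jun window holds TGACATCA at positions 206 to 213, counted from 1 at its 5′ end, and 1 of the 3 Maff windows holds the same letters at the same positions. The Fosl2 window holds an EGR site, as do those of Fosb and Maff, so 3 of the 10 windows did so against 5.55% of all 32851 windows in the table. A CRE half-site stood in 6 of the 10 windows (20.8% of all windows), among them those of Fos and Atf3, and the full CRE in 1, a Maff window (1.79%). TGACATCA stood in 2 of the 10 (3.62%) and TATAAA in those of Fos and Junb (13.6%). TGANTCA (7.81%) and the CArG box (1.63%) were in 0 of the 10. Egr1 and Fosl1 had no window, and letters farther than 250 bases before a start were not searched. The matches describe the letters of the windows and not the binding of a factor.

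Among the Fos family genes, Fosl2 had the lower value with the Scrib hairpin in every line. Fosl2 (ENSMUSG00000029135, chr5:32135801-32157842 in GRCm38, plus strand) encodes FRA-2, a Jun partner that lacks the transactivation domain of FOS. With the Renilla hairpin it stood at 73.4 (T91), 73.6 (T113) and 87.0 CPM (T118), and with the Scrib hairpin at 53.2, 47.0 and 49.4 CPM. All 3 Scrib hairpin libraries lay below all 3 control libraries, which held for no other member and for 2.14% of all genes tested. Relative to the control of the same line, the Scrib hairpin libraries were at 72.6% (T91), 63.9% (T113) and 56.9% (T118). Fosl2 was also the only member lower in all 3 lines, as 15.4% of all genes were, and 0 members were higher in all 3 (14.8%). Fitted over the lines, its log2 fold change was -0.64 ± 0.11 (standard error; 95% interval -0.90 to -0.39). Its unadjusted p of 0.000693 was the 21st smallest of all genes tested, and it did not pass edgeR's quasi-likelihood test after Benjamini-Hochberg adjustment (adjusted p = 0.468). It did pass the Wald test of DESeq2, also fitted with a line term (adjusted p = 0.00165), as did 0.445% of all genes (0.402% lower), and it passed edgeR's test without the low-count filter (adjusted p = 0.0111) and without T91 (adjusted p = 0.0209, where 0.654% of genes passed). Over all settings its adjusted p ran from 0.00165 to 1.

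**Figure D1:**
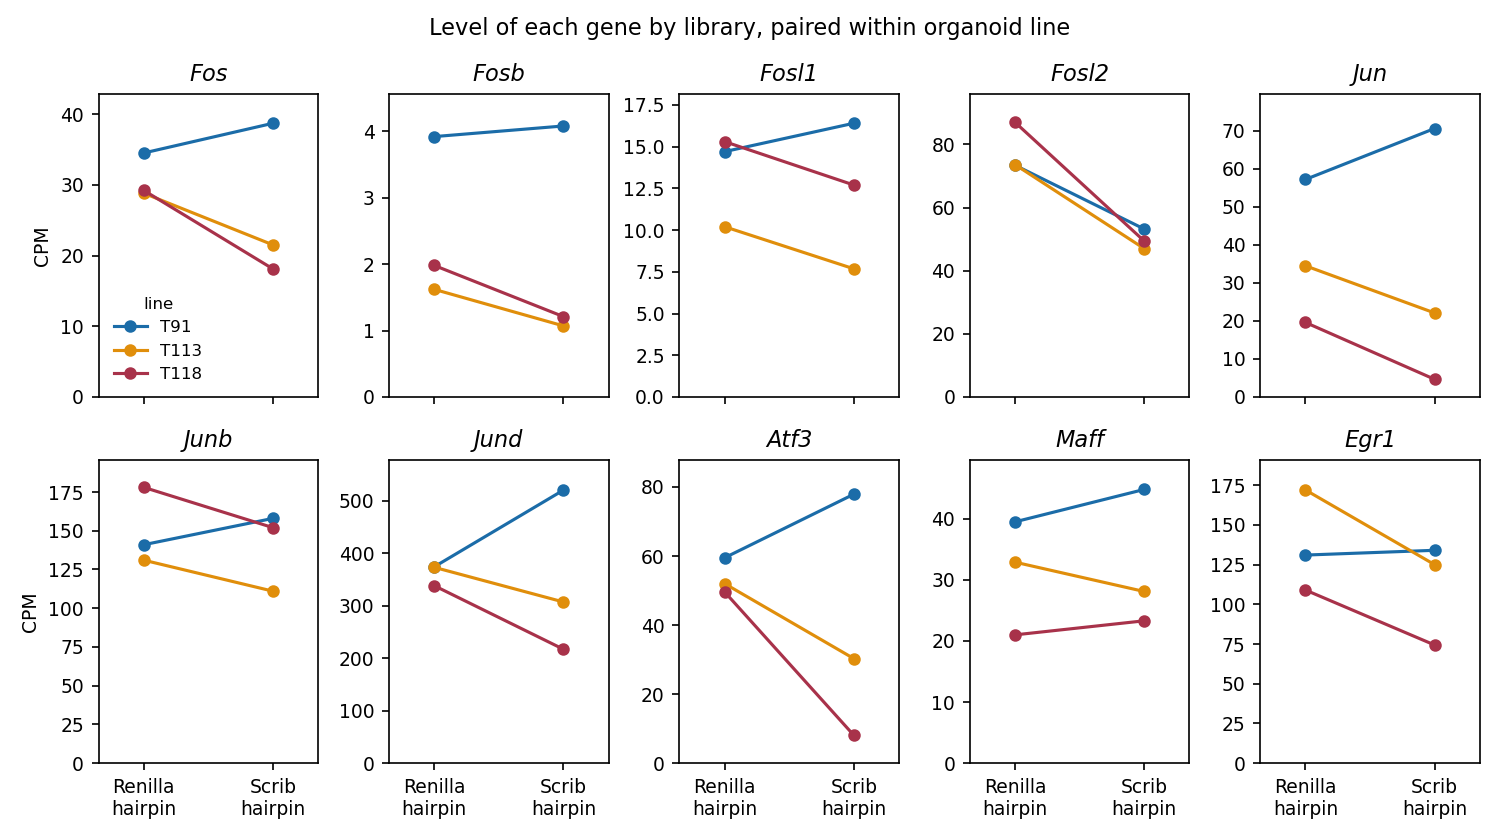
CPM (vertical axes, each from 0) of the 10 genes in the libraries with the Renilla and the Scrib hairpin, where a line joins the 2 libraries of an organoid line. Fosl2 is lower with the Scrib hairpin in all 3 lines, from 73.4, 73.6 and 87.0 CPM to 53.2, 47.0 and 49.4 CPM, while Jun and Atf3 are higher in T91 and lower in T113 and T118.

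The other 3 Fos genes parted by line. Fos, the classic early gene of the family (ENSMUSG00000021250, chr12:85473890-85477273, plus strand), stood at 34.5, 28.8 and 29.2 CPM with the Renilla hairpin in T91, T113 and T118, and at 38.7, 21.5 and 18.1 CPM with the Scrib hairpin. Its level was thus higher after knockdown in T91 and lower in the other two lines, and the groups overlapped. Fosl1, which encodes FRA-1 and is known as an ERK-dependent member, stood at 14.7, 10.2 and 15.3 CPM in the controls and at 16.4, 7.68 and 12.7 CPM with the Scrib hairpin. Fosb, the scarcest member, stood at 3.92, 1.62 and 1.98 CPM in the controls and at 4.08, 1.07 and 1.21 CPM with the Scrib hairpin. Their log2 fold changes over the lines were -0.31 for Fos (standard error 0.17), -0.18 for Fosl1 (0.16) and -0.39 for Fosb (0.27), and none passed (edgeR adjusted p = 0.783, 0.833 and 0.804). Without T91 the values were -0.55, -0.34 and -0.65, without T113 -0.26, -0.06 and -0.30, and without T118 -0.13, -0.13 and -0.24. Fosl1 shares 1163 exon bases with Ccdc85b on the opposite strand, and since no strand setting is stated their reads may not have been told apart. Ccdc85b itself stood at 28.2 to 38.6 CPM, with log2 ratios of 0.23 (T91), 0.13 (T113) and -0.05 (T118).

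The Jun family showed the same signs by line, and Jun itself had the widest spread of the family. Jun (ENSMUSG00000052684, chr4:95049034-95052222, minus strand, 1 exon), the substrate of JNK and partner of every Fos protein, stood at 57.2 CPM in T91, 34.5 in T113 and 19.6 in T118 with the Renilla hairpin. With the Scrib hairpin it stood at 70.6, 22.1 and 4.65 CPM, which is 124%, 63.9% and 23.8% of the control. The T118 library with the Scrib hairpin was the lowest of all 6, and only 1.39% of all genes had a ratio as low as that of Jun in T118. Jund, the member that is abundant in resting cells, stood at 374, 373 and 338 CPM in the controls and at 520, 307 and 217 CPM with the Scrib hairpin. Its controls lay close together, and the libraries with the Scrib hairpin stood on either side of them. Junb, which can act against Jun, stood at 141, 131 and 178 CPM in the controls and at 158, 111 and 152 CPM with the Scrib hairpin. The log2 fold changes were -0.72 for Jun (standard error 0.50), -0.15 for Jund (0.21) and -0.10 for Junb (0.11), and none passed (edgeR adjusted p = 0.809, 0.893 and 0.860). Without T118 the fold change of Jun was -0.16, that of Jund turned to 0.10 and that of Junb was -0.04. Without T91 they were -1.28, -0.46 and -0.23, and without T113 -0.80, -0.08 and -0.03. Junb shares 173 exon bases with Prdx2 on the opposite strand. Prdx2 stood at 124 to 189 CPM, with log2 ratios of 0.15 (T91), 0.03 (T113) and -0.17 (T118). Jund shares 877 exon bases with the antisense gene Gm11175, which stood at 0.842 to 2.73 CPM. The reads of these pairs, too, may not have been told apart.

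Atf3 had the widest range of responses. It encodes a stress-induced bZIP factor that binds Jun proteins and mostly represses (ENSMUSG00000026628, chr1:191170296-191218039, minus strand). Its control libraries lay close together, at 59.5 (T91), 52.0 (T113) and 49.6 CPM (T118). With the Scrib hairpin the libraries spread out to 77.9, 30.3 and 8.09 CPM, or 131%, 58.4% and 16.3% of the control. The standard deviation was 5.18 CPM over the 3 controls and 35.7 CPM over the 3 libraries with the Scrib hairpin. The difference between its highest and lowest log2 ratio was 3.00, a spread that 2.03% of all genes reached, and that of Jun was 2.38 (3.38%). The Atf3 estimate over the lines was -0.93 ± 0.69 (log2 fold change and standard error), which did not pass (edgeR adjusted p = 0.820). That value was -0.19 without T118, -1.06 without T113 and -1.62 without T91. Maff, a small Maf protein without a transactivation domain, stood at 39.5, 32.9 and 21.0 CPM in the controls and at 44.8, 28.1 and 23.3 CPM with the Scrib hairpin. Its estimate over the lines was the closest to 0 of the 10 (log2 fold change 0.03, standard error 0.12, edgeR adjusted p = 0.964), and the sign of that value turned without T91 (-0.04) and without T118 (-0.03).

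Egr1 stood at 131, 172 and 109 CPM with the Renilla hairpin in T91, T113 and T118, and at 134, 125 and 74.4 CPM with the Scrib hairpin. The level was almost the same in the 2 libraries of T91 and lower after knockdown in T113 (72.6% of control) and T118 (68.4%), and the groups overlapped. Over the lines this gave -0.33 ± 0.13 (log2 fold change and standard error; 95% interval -0.65 to -0.01) at an unadjusted p of 0.0471, which did not pass (edgeR adjusted p = 0.753). Without T91 the value was -0.50 with an adjusted p = 0.0536 from the same test, without T113 it was -0.26 and without T118 -0.22 (adjusted p = 1 and 0.959).

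**Figure D2:**
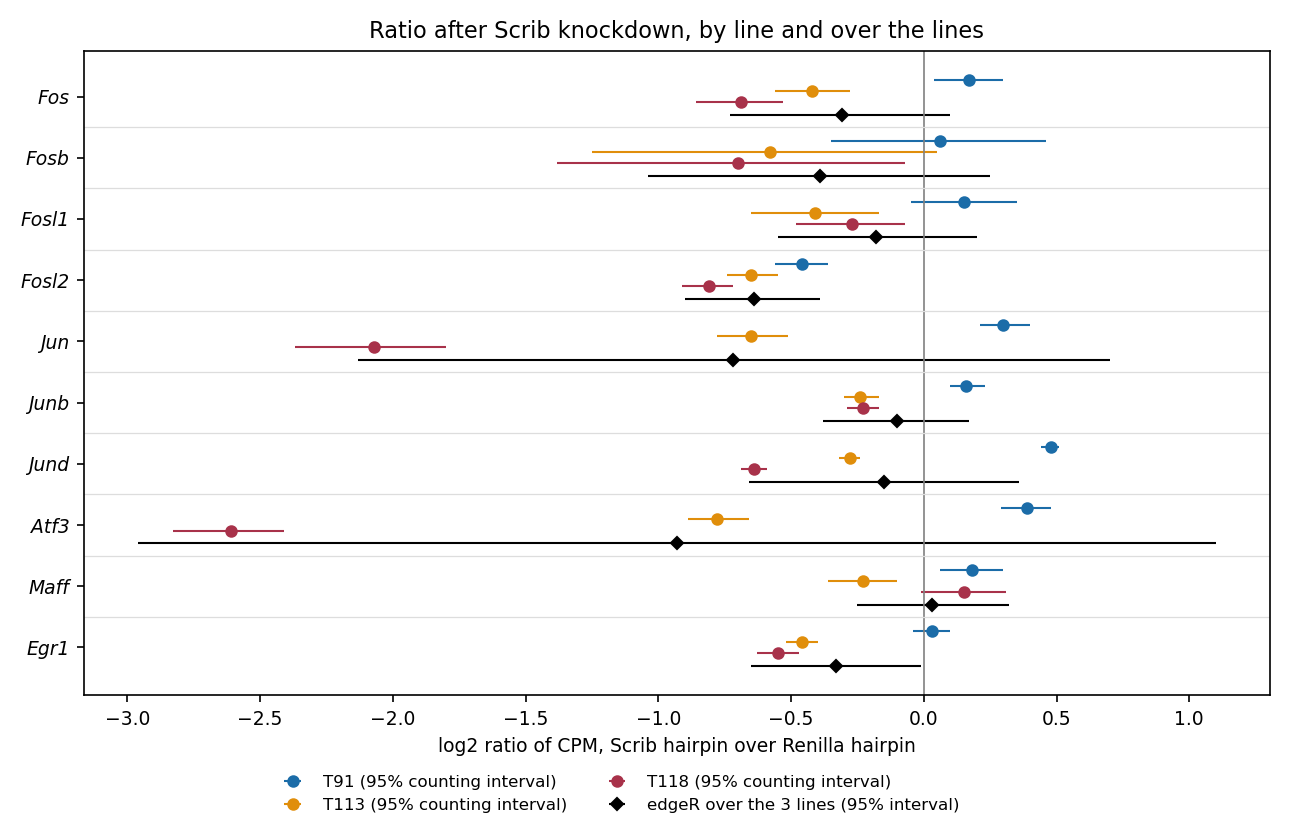
Log2 ratio of CPM, Scrib over Renilla hairpin (horizontal axis), for each gene in each line (circles, with 95% intervals for counting error only) and over the 3 lines (diamonds, edgeR estimate with 95% interval). The T91 circle is the highest of the 3 for every gene, Fosl2 is below 0 in all lines, and the Atf3 and Jun circles of T118 lie at -2.61 and -2.07.

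Counted over all 10 genes, 0 passed edgeR's test after Benjamini-Hochberg adjustment, where 0.00706% of all genes tested (1 gene, Scrib) did. At an unadjusted p under 0.05, 2 members were lower (Fosl2 and Egr1; 5.06% of all genes) and 0 higher (1.55%). The edgeR estimate was below 0 for 9 of the 10 (51.8% of all genes), and the median over the members was -0.32 against -0.01 over all genes. That median was -0.53 without T91, -0.26 without T113 and -0.15 without T118. DESeq2 called 1 member and limma-voom 0.

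The sign of the ratio differed between the lines. In T91, 9 of the 10 members were higher after knockdown (50.2% of all genes were) and 1 was lower, Fosl2 (49.8%), with a median log2 ratio of 0.16. In T113 all 10 were lower (50.4% of all genes), with a median of -0.44 and a range from -0.78 (Atf3) to -0.23 (Maff). In T118, 9 were lower (50.2% of all genes) and 1 was higher, Maff (49.8%), with a median of -0.67, against a median of 0 over all genes in each line. The 95% interval for counting error, which holds no error between cultures, lay above 0 for 6 members and below 0 for 1 in T91, and below 0 for 9 members in T113 and for 9 in T118. The share of all genes with such intervals was not computed, so these counts have no background. At high counts the intervals were narrow, as for Jund in T113 (-0.32 to -0.24). A log2 ratio of -1 or below was found for 2 members in T118, Jun and Atf3 (6.15% of all genes), and for 0 in T91 (3.29%) and T113 (2.23%). A log2 ratio of 1 or above was found for 0 members in T91 (2.02% of all genes), in T113 (1.63%) and in T118 (1.83%).

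Of the 10 members, 8 were higher in T91 and lower in both other lines, a pattern that 17.1% of all genes had. All 10 had a higher ratio in T91 than in both other lines (40% of all genes), and 7 had T91 above T113 above T118 (28.8%). Members are not independent of each other, and with 1 library per hairpin in a line the difference in response between lines was not tested. T91 was the line in which 9 members were higher. Without T91, all 10 members had an edgeR estimate below 0, where the median over all genes was -0.003. In that fit 5 members had an unadjusted edgeR p under 0.05, namely Fosl2, Egr1, Fos, Jund and Junb (9.7% of all genes were lower at that p). Without T113 or without T118, 0 members passed after adjustment (0.0628% and 0.173% of all genes did), and 1 was lower at an unadjusted p under 0.05, Fosl2 in both cases (2.19% and 4.8% of all genes). The summed level of the epithelial markers moved with the same signs as most members. It went from 7290 to 8080 CPM in T91, from 6990 to 6220 in T113 and from 10100 to 7250 in T118. Of these 7 markers, 3 were higher in T91 and lower in both other lines. Cdh1 was lower in all 3 lines, and Sox9 was lower in T91 and higher in T113 and T118. The immune sum also had the signs of most members, going from 3.25 to 5.64, from 3.93 to 2.12 and from 4.40 to 2.38 CPM. Within that sum Cd68 went from 3.02 to 3.70, from 3.85 to 2.08 and from 4.06 to 2.23 CPM. The fibroblast sum went from 1.11 to 7.57 CPM in T91, from 1.70 to 1.37 in T113 and from 1.4 to 2.20 in T118. The share of counts in mitochondrial genome genes went from 1.86% to 2.09% in T91, from 2.32% to 1.69% in T113 and from 2.14% to 2.29% in T118. Of the nuclear noncoding RNAs, Neat1 had the same signs as most members, going from 59.2 to 63.5 CPM in T91, from 105 to 89.9 in T113 and from 107 to 44.4 in T118, while Malat1 went from 120 to 69.1, from 123 to 128 and from 174 to 129 CPM. The part of these in the members' ratios was not tested. In bulk RNA, fewer cells that express a gene and less RNA per cell cannot be told apart.

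**Figure D3:**
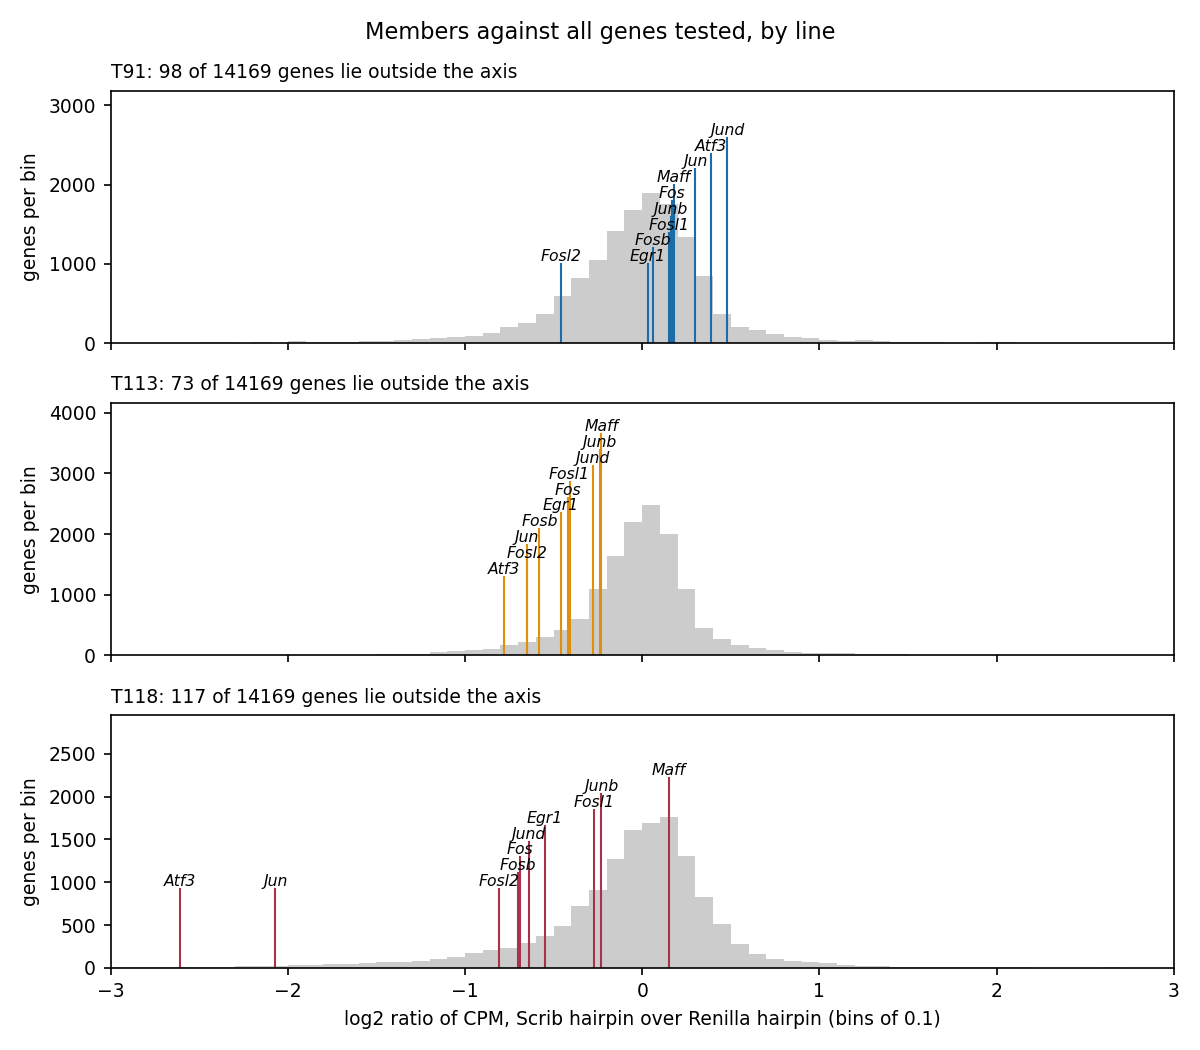
Histograms of the log2 ratio, Scrib over Renilla hairpin, of the 14169 genes tested in each line (grey, bins of 0.1, with some genes outside the axis, counted above each panel), with the 10 genes as coloured lines whose heights only keep the labels apart. The members stand mostly right of 0 in T91 and left of 0 in T113 and T118, where Jun and Atf3 lie in the far left tail of T118.

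Levels were also compared between the lines, with both hairpins in the fit. In the F-test of both line terms, 2 of the 10 members passed, Maff (edgeR adjusted p = 0.0208) and Fosb (edgeR adjusted p = 0.0322), where 14% of all genes did, so the members' share was close to that of all genes. Maff was lower in T118 than in T91 by a log2 difference of -0.92 (standard error 0.15, edgeR adjusted p = 0.0122). Fosb was lower than in T91 both in T113 (-1.60, standard error 0.33, edgeR adjusted p = 0.0416) and in T118 (-1.37, 0.33, edgeR adjusted p = 0.0475), and its F-test did not pass without either T113 library or without the T91 library with the Scrib hairpin (edgeR adjusted p = 0.0842, 0.124 and 0.121). These pairwise contrasts called 6.06% of all genes between T113 and T91 (3.17% lower in T113) and 11% between T118 and T91 (5.8% lower in T118). Egr1 was lower in T118 than in T113 (-0.70, standard error 0.16, edgeR adjusted p = 0.0457, 10.2% of all genes called, 5.34% lower in T118), although its F-test did not pass (edgeR adjusted p = 0.0659). Jun had the largest difference among members, -2.63 between T118 and T91 (standard error 0.64), and did not pass (edgeR adjusted p = 0.0964). Which members were called between lines depended on single libraries: leaving out any 1 of the 6 gave 1 to 7 members, in fits that called 1274 to 4328 genes. The 7 members came without the T91 control library (4328 genes called) and without the T118 control library (3099).

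Genes around AP-1 were taken from lists, and no member of any of them passed edgeR's test over all genes (0 of 15, 25, 24, 19, 11 and 9 in the order below). The 15 bZIP partners tested had a median log2 fold change of -0.05, with 14 below 0 (51.8% of all genes were). Several of these 14 lay within 0.02 of 0. By line the medians of the partners were -0.01 (T91), -0.10 (T113) and -0.05 (T118). Their median was -0.03 without T113 and -0.08 without T118. Among them Bach1, a repressor that pairs with small Maf proteins, had -0.31 (standard error 0.13), Crem -0.19 (0.19), and Ddit3, the stress factor CHOP, -0.79 (0.85). The log2 ratios of Ddit3 were 0.76 (T91), -0.60 (T113) and -2.95 (T118), with the same signs as those of Atf3.

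Other immediate early genes had a median of -0.16, with 18 of 25 below 0 (51.8% of all genes). By line the medians were 0.08 (T91), -0.17 (T113) and -0.36 (T118). The list's median was -0.05 without T113 and -0.09 without T118. Of these 25, 12 were higher in T91 and lower in both other lines (17.1% of all genes). The zinc finger factor gene Klf4 had log2 ratios of -0.22, -0.61 and -0.94 in T91, T113 and T118, Klf6 of 0.00, -0.62 and -0.47, and Ier3, a regulator of survival, of 0.04, -0.90 and -0.73. Kinases upstream and the SRF and ternary complex factors had a median of -0.04 over 24 genes, with line medians of -0.09, -0.06 and 0.05, and without T91 the median turned to 0.02, while it was -0.08 without T113 and -0.10 without T118. In that list the fold changes on the log2 scale were -0.33 ± 0.12 (standard error) for Rps6ka3, the ERK-activated kinase RSK2, -0.19 ± 0.10 for Map2k1, the ERK kinase MEK1, and -0.32 ± 0.18 for Map2k6, a p38 kinase kinase.

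Known AP-1 targets had a median of -0.20 over 19 genes, with 15 below 0 (51.8% of all genes). By line the medians were 0.00 (T91), -0.26 (T113) and -0.40 (T118). Without T91 the list's median was -0.32. On the same scale the values were -0.59 ± 0.16 for the cytokine gene Lif, -0.42 ± 0.13 for the metallothionein gene Mt2 and -1.07 ± 0.34 for the cytokine gene Il1a. Corepressors and targets of EGR1 had a median of -0.26 over 11 genes, 8 of them below 0 (51.8% of all genes). That median was -0.17 without T113 and -0.12 without T118. F3, which encodes tissue factor, had log2 ratios of -0.06 (T91), -1.20 (T113) and -0.71 (T118), the cell cycle inhibitor gene Cdkn1a of 0.14, -1.18 and -2.06, and Pdgfb of -0.08, -0.26 and -0.76. The 9 heat shock genes had a median of 0.08, with line medians of 0.23, 0.09 and 0.05. Of these 9, 3 were higher in T91 and lower in T113 and T118 (17.1% of all genes). Another 3 were higher in all 3 lines (14.8% of all genes). By smallest unadjusted edgeR p, the first 3 of these chaperone genes were Hspe1 (0.21 ± 0.09), Hsp90aa1 (0.20 ± 0.11) and Hsph1 (0.15 ± 0.14). Hsph1 was not among the genes higher in all lines, as its log2 ratio in T91 was -0.24.

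**Figure D4:**
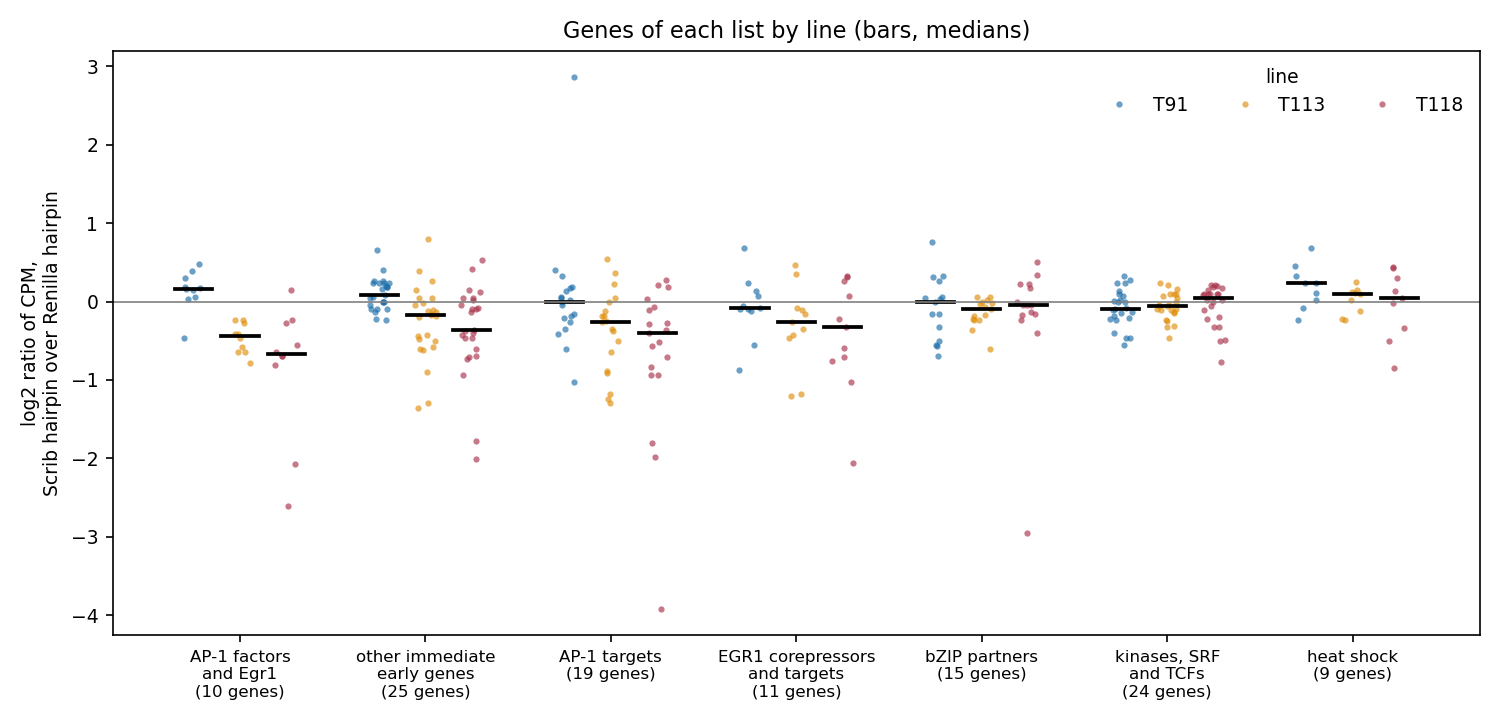
Log2 ratio of CPM, Scrib over Renilla hairpin (vertical axis), of each gene tested in 7 lists, by line (colours), with medians as bars. The medians of the AP-1 factors and Egr1 are 0.16, -0.44 and -0.67 in T91, T113 and T118, and those of the kinases, SRF and ternary complex factors and of the bZIP partners lie within 0.10 of 0.

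The members were also set beside each other and beside the rest of the genes by the root mean square difference of their centred log2 CPM over the 6 libraries, which share 3 lines and 2 hairpins. Fos and Jund were the closest pair (0.135), each being the nearest member of the other, and Jun and Atf3 were likewise nearest to each other (0.428, where their own variation was 1.284 and 1.074). Fosl2 had Junb as its nearest member at 0.301, little below its own variation of 0.335. Among 10124 other genes, the closest to Fosl2 were Baiap2l1 (0.157), Clip2 (0.158), Col4a5 (0.161), Tnfrsf23 (0.164) and Cdh13 (0.169), where the median gene lay at 0.393. The closest to Egr1 were Cul7 (0.065), Ankrd24 (0.077), Slc6a9 (0.088), Qsox1 (0.096) and Zfp523 (0.103), with a median of 0.416.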

How the data were processed

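RNA of 6 organoid cultures, 3 lines with 2 hairpins each, had been sequenced as mRNA libraries. The deposited tables hold estimated counts by Ensembl gene, not scaled for depth. Salmon 1.4.0, DESeq 2 and GRCm38 (mm10) are named in the submitters' processing notes. The annotation, the strand setting and the summing of transcripts are not stated there. Salmon divides reads among similar transcripts, so such genes can trade counts. The labels speak of virus in one place and of transfected plasmids in another.

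Estimated counts were rounded and fitted in R 4.3.3 with edgeR 4.0.16 (filterByExpr with a minimum count of 10, TMM, robust quasi-likelihood F-test, terms for line and hairpin, two-sided, Benjamini-Hochberg adjustment over 14169 genes, threshold 0.05). The fit had 2 residual and a median of 4.43 prior degrees of freedom. The libraries of a line are paired by their origin, and their deviations from the group means correlated at 0.575 (T91), 0.590 (T113) and 0.613 (T118). Log2 ratios within a line add 0.5 to each count, and their intervals are exact binomial ones. The fit was tested on simulated data.

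Symbols, positions and exon lengths came from GENCODE (GRCm38), which named 54200 of the 54453 identifiers. All 164 list and member genes were found, 4 of them under newer symbols (Ccn1, Ccn2, Mrtfa, Mrtfb). The text names Scrib, the members, the 3 genes of each list with the smallest unadjusted p, and the 5 genes most like Fosl2 and Egr1 (average log2 CPM of at least 2, no clone symbols). Outside this rule it names genes that overlap a member, marker genes and RNA quality genes, and in the closing observations 5 list genes chosen after their values were seen (Dusp1, Sprr1a, Btg2, Ccn1 and Ccn2). The members and lists were chosen with earlier results of these data known. Alternatives were no line term, other scalings and filters, DESeq2 1.42.0, limma-voom (limma 3.58.1), the legacy quasi-likelihood method, a threshold of 0.1 and leaving out a line or a library. The p-values rest on the spread between single cultures of 3 lines.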

Additional observations from a re-analysis of the deposited data

Results flagged for a closer look

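For 6 members the log2 ratio of Scrib over Renilla hairpin was above 0 in T91 and below 0 in at least 1 other line, with both 95% counting intervals clear of 0. The share of all genes that meet this rule was not computed. The difference between lines was not tested, because each line had 1 library per hairpin, and the intervals hold counting error only. The widest gaps were those of Atf3, whose log2 ratio in T91 exceeded that in T113 by 1.16 and that in T118 by 3.00, and of Jun, by 0.95 and 2.38. Jund came next, at 0.76 over T113 and 1.12 over T118. For Fos the gaps were 0.59 over T113 and 0.86 over T118. For Junb they were 0.40 and 0.39. Maff had such a gap over T113 alone, of 0.41.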

How the results depend on the processing

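Fosl2 stayed below 0 in all alternatives run, with log2 fold changes from -0.73 to -0.56. Of 109 values of member fold changes under alternatives, 103 kept their sign and their side of the threshold, 3 (all Fosl2) came to pass and 3 changed sign. Those that changed sign were Jund without T118 (0.10; range over left-out lines -0.46 to 0.10) and Maff without T91 (-0.04) and without T118 (-0.03; range -0.04 to 0.17). Genes called for the knockdown numbered 1, but 64 without the low-count filter, 63 with DESeq2, 8 with limma-voom and 9 to 94 with a line left out (94 without T91, 9 without T113, 25 without T118). Members called numbered 0, but 1 (Fosl2) without the filter, 1 (Fosl2) with DESeq2 and 0 to 1 with a line left out. Genes called between lines numbered 1989, but 1310 at an average CPM of at least 5 and 1274 to 4328 with a library left out. Members called between lines numbered 2, but 4 without the filter, 1 at an average CPM of at least 5, 5 with DESeq2's likelihood ratio test and 1 to 7 with a library left out. Genes called between lines numbered 2966 of 27467 tested without the filter, and 2653 with DESeq2's likelihood ratio test. At an average CPM of at least 5, 10304 genes and 9 members were tested. Fosb, at a mean of 2.31 CPM, was not among them, and Maff still passed (edgeR F-test adjusted p = 0.0254). The median of the kinase, SRF and ternary complex factor list was -0.04 and ran from -0.10 to 0.02 with a line left out. The causes were not tested. Without the replicate block, which treats the 2 libraries of a line as unpaired, 1 gene and 0 members were called, Fosl2 had -0.64 (edgeR adjusted p = 1), Jun -0.20 and Atf3 -0.47, and no member's sign changed. With 3 lines and 1 library per line and hairpin, the precision is set by the lines more than by the counts, which were lowest for Fosb at 33.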

Other observations

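Among the genes of the lists, 3 with low ratios in T118 were picked after their values were seen. Dusp1, a phosphatase that switches off JNK and p38, went from 27.6 to 30.8 CPM in T91, from 17.3 to 6.74 in T113 and from 15.1 to 3.73 in T118. Sprr1a, a cornified envelope gene, went from 75.6 to 99.5, from 50.3 to 20.5 and from 26.3 to 6.66 CPM in the same lines. Btg2, an antiproliferative early gene, went from 19.1 to 22.4, from 26.8 to 19.9 and from 42.7 to 12.4 CPM. All 3 were higher in T91 and lower in T113 and T118, as were 8 of the 10 members, and none passed edgeR's test over the lines (adjusted p = 0.772, 0.791 and 0.803).

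Ccn1 and Ccn2, early genes for secreted matrix proteins that are known YAP targets, were higher in all 3 lines, so that their signs differed from those of the 3 genes above in T113 and T118 but not in T91. They were also picked after their values were seen. Ccn2 had log2 ratios of 0.23, 0.80 and 0.12 in T91, T113 and T118, and Ccn1 of 0.06, 0.39 and 0.53. Their fitted values were 0.38 ± 0.15 and 0.32 ± 0.14 (standard error), and neither passed (edgeR adjusted p = 0.748 and 0.770).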
